A study of Mus musculus with 8 samples.

Results

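The genes described here are 42 interferon-stimulated antiviral effector genes, meaning genes that cells switch on in answer to interferon and whose products act on viruses or other intracellular pathogens. They were chosen by name: 43 symbols were listed, 42 of them were found among the 23366 gene symbols of the count table, and Ifi27 was not analysed here. Where a symbol had more than 1 row, which was so for 6 of the 42, its most heavily counted row was used. All 42 passed the filter on low counts, but 14 of them passed through the KO-labelled libraries alone, so counts and medians over the 42 describe them and are not evidence for a direction.

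The RNA came from MEFs (mouse embryonic fibroblasts, the connective tissue cells that grow from minced embryos) of strain C57BL/6 at passages 3 to 5, in a study of autophagy and the histone demethylase gene Kdm3a. The groups, with 2 libraries each, were Kdm3a knockout (KO) cells starved of glucose for 12 h, KO cells fed at 0 h, wild-type (WT) cells starved for 12 h and WT cells fed at 0 h. All cells were grown in DMEM with 10% FBS and antibiotics, and the starved cells were washed and moved to DMEM without glucose that held 10% dialyzed FBS. A control in full medium for 12 h, or in dialyzed serum with glucose, is not among the groups, so starvation stands for all of these changes together. The labels do not say how the knockout was made, nor whether replicates came from separate embryos or cultures, so the spread behind each p-value is that between these libraries and may be technical.

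Interferons of type I bind a receptor whose kinases activate transcription factors that bind, together with IRF9, the interferon-stimulated response element (ISRE) in promoters. Interferon gamma acts through another receptor and the gamma activated sequence (GAS). The induced proteins block viral entry, bind or cut viral RNA, alter nucleotide pools, attack the membranes around intracellular pathogens or attach the ubiquitin-like protein ISG15 to other proteins. Fibroblasts hold the receptor and are a common cell in which this response is studied.

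Promoter windows of 300 bases, from 250 before to 50 after the transcription start, were read from RefSeq (GRCm38.p6) for 34 of the 42 genes. The letters GAAANNGAA, the core of an ISRE, were searched on both strands, and 23 of the 34 genes (67.6%) had a match, against 9.76% of the 27025 genes in the same RefSeq table. The letters TTCNNNGAA of a GAS, also searched on both strands, were found for 10 of the 34 genes (29.4%), against 9.55% of all genes. All 6 GTPase genes with a window held an ISRE core, as did 2 of 4 OAS genes, 2 of 3 IFIT genes and 2 of 4 ubiquitin-like genes. Such matches describe the letters and do not show that a factor binds there. The windows of 7 genes are printed from 5′ to 3′, with ISRE core matches in capitals (neighbouring matches run together): 1 or 2 from each of the 4 families compared here, and the neighbouring pair Rsad2 and Cmpk2, whose levels parted on starvation. Their positions are, on GRCm38.p6, chr4:156200769-156201068 (minus strand) for Isg15, chr5:120907476-120907775 (minus) for Oas1a, chr19:34640639-34640938 (plus) for Ifit1, chr11:48871371-48871670 (minus) for Irgm1, chr3:142620413-142620712 (plus) for Gbp2, chr12:26456403-26456702 (minus) for Rsad2 and chr12:26468965-26469264 (plus) for Cmpk2.
Isg15: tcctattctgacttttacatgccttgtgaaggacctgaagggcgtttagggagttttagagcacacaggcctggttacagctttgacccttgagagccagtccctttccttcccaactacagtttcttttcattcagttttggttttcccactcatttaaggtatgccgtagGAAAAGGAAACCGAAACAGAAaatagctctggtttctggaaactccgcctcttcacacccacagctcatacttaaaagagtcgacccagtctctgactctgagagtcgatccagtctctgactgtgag
Oas1a: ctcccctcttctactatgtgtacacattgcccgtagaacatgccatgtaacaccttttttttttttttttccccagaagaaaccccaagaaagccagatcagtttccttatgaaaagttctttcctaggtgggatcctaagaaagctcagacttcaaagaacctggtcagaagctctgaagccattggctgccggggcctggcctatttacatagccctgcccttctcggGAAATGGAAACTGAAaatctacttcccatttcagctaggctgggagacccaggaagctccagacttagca
Ifit1: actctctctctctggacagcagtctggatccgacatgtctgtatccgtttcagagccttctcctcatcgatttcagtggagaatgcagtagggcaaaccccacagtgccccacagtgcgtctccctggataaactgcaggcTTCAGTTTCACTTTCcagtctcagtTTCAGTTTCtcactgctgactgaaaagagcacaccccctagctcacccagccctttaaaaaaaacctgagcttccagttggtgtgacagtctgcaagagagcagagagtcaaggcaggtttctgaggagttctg
Irgm1: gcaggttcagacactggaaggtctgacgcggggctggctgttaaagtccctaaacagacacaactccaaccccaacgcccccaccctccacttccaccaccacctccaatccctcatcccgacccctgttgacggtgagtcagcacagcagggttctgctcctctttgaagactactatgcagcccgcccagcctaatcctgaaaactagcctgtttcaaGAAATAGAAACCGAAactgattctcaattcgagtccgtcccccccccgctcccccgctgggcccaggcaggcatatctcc
Gbp2: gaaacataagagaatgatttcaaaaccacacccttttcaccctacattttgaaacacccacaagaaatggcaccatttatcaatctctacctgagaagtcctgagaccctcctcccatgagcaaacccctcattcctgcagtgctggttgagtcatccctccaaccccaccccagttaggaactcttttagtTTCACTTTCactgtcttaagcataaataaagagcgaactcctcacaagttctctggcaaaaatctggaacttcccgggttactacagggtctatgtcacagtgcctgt
Rsad2: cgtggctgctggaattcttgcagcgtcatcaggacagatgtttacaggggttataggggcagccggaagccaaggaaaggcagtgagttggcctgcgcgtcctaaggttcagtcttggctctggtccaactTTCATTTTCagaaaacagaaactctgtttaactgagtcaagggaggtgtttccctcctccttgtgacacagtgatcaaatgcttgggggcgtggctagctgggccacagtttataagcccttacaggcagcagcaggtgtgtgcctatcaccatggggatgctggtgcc
Cmpk2: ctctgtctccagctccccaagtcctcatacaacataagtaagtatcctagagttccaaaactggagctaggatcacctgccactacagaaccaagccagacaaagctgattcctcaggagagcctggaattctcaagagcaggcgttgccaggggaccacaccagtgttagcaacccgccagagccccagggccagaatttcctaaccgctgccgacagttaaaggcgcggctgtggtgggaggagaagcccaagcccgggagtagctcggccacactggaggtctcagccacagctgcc
Isg15 and Ifit1 each held 3 ISRE core matches, Oas1a and Irgm1 2 each, and Gbp2 and Rsad2 1 each. In Isg15 the matches began at -78, -72 and -66 relative to the start, so they overlap in a row of repeats, and in Rsad2 the match began at -119. Cmpk2 held neither set of letters in its window.

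**Figure D1:**
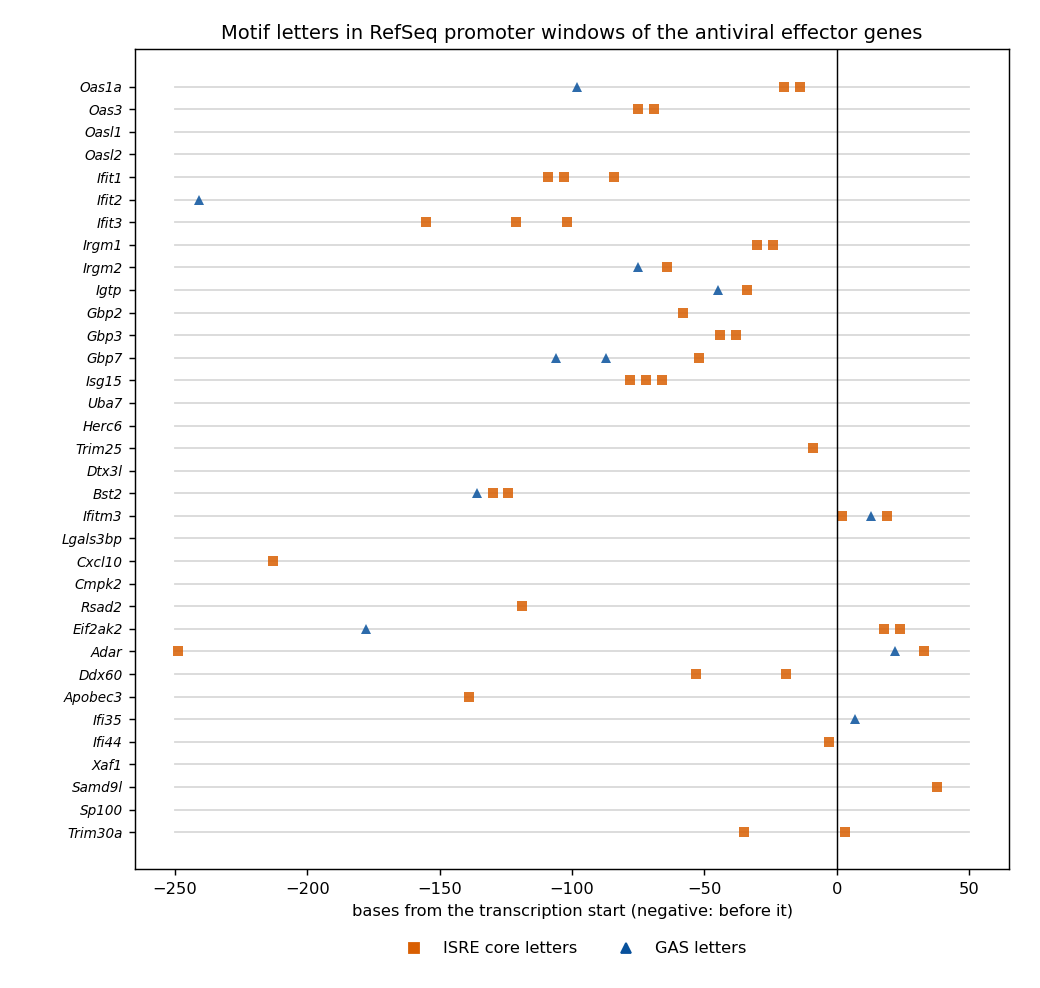
Positions of ISRE core (squares) and GAS (triangles) letters in the RefSeq promoter windows of the 34 genes, in bases from the transcription start. Of the 39 ISRE core matches, 29 began within 150 bases before the start.

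With 1 row per symbol, the libraries held 38407520 to 53602289 counts, and 14426 to 16050 genes had a count. Kdm3a, the targeted gene, had 65.4 and 66.7 CPM (counts per 1000000 of the TMM-adjusted library total) in starved and 55.2 and 55.4 CPM in fed KO-labelled libraries, against 176 and 185 CPM in starved and 56.1 and 56.4 CPM in fed WT libraries. In fed cells it did not differ between the labels beyond the spread between libraries (log2 fold change -0.02 ± 0.04, adjusted p = 0.619 by edgeR). In starved cells it was lower in KO-labelled than in WT cells (-1.45 ± 0.04, adjusted p = 3.70e-18 by edgeR). Because of the fed values the cells are called KO-labelled throughout. Counts over a whole transcript cannot show whether an exon is missing. Xist had 43713 to 72498 counts in KO-labelled and 31 to 58 counts in WT libraries, while Uty, Kdm5d, Eif2s3y and Ddx3y on the Y chromosome ranged over 0 to 2 counts in KO-labelled libraries and 296 to 1251 counts in WT libraries. The label therefore goes with the sex of the cells, and their effects cannot be told apart. Fibroblast genes such as Col1a1, Vim and Fn1 were present in every library, and the sum of 12 fibroblast markers was 13240 and 13370 CPM in starved and 11580 and 11550 CPM in fed KO-labelled libraries, against 21030 and 22060 CPM in starved and 21220 and 20670 CPM in fed WT libraries. Single fibroblast markers went both ways between the labels: of the 12, 6 were higher and 6 lower in fed KO-labelled than in fed WT cells. Postn had 6.71 and 6.44 CPM in fed KO-labelled and 426 and 438 CPM in fed WT libraries. Thy1 had 5.88 and 6.62 CPM in fed KO-labelled and 99.3 and 103 CPM in fed WT libraries, and Col1a2 268 and 261 CPM in fed KO-labelled and 6199 and 6019 CPM in fed WT libraries. Dcn went the other way, with 52.2 and 50.6 CPM in fed KO-labelled and 2.57 and 2.25 CPM in fed WT libraries. In WT cells Col1a1 had 240.4 and 255 CPM in starved and 4751 and 4572 CPM in fed libraries. The part of these differences between the cells in the values of the antiviral genes was not tested. The blood cell genes Ptprc, Emr1, Tyrobp, Cd3e and Siglech had 0 counts in all 8 libraries.

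The antiviral genes stood far higher in fed KO-labelled than in fed WT cells. All 42 were higher there by edgeR's quasi-likelihood test, 40 of them at least 4-fold, and 0 were lower, also at an unadjusted p under 0.05 and by DESeq2. Their median log2 fold change was 6.16, against -0.06 over the 14418 genes tested. Over all genes tested, 34.5% were called higher and 39.8% lower in this comparison, and 7.12% were called higher by at least 4-fold. The 4-fold mark was left unmet by Ifit2 and Eif2ak2 (PKR, a kinase that stops translation on double-stranded RNA), with log2 fold changes of 1.23 ± 0.06 and 1.94 ± 0.04. Calls here and below were made at an adjusted p under 0.05, with Benjamini-Hochberg adjustment over all 14418 genes. In these bulk libraries, more expressing cells and more RNA per cell cannot be told apart.

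**Figure D2:**
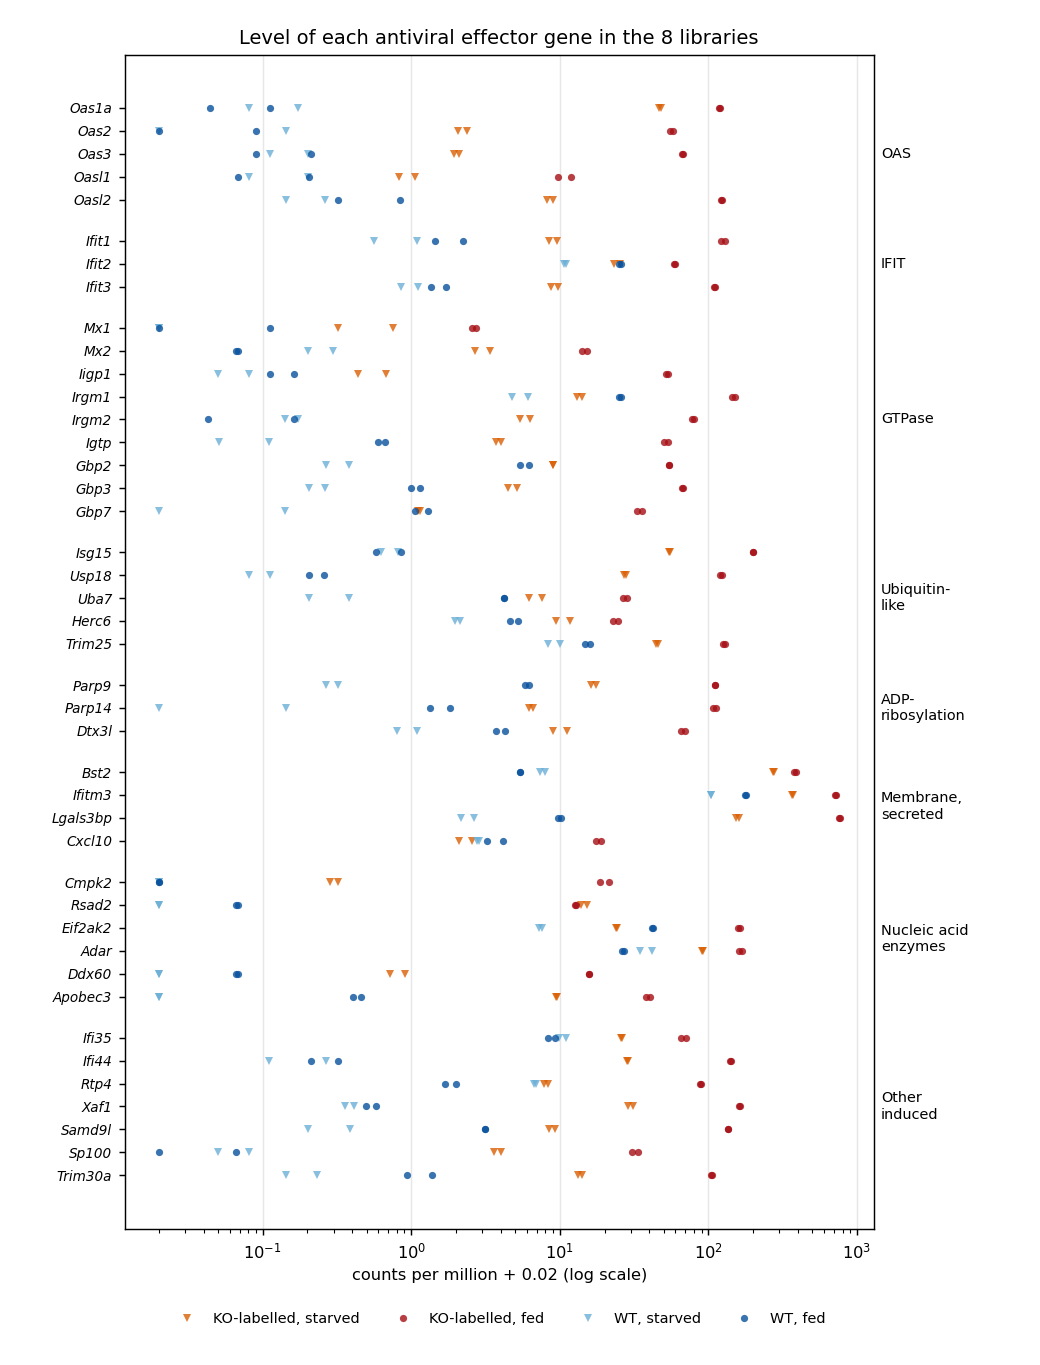
Level of each of the 42 genes in the 8 libraries, as CPM plus 0.02 on a log axis. In each row the fed KO-labelled libraries (dark red circles) lie to the right of both WT groups (blue), and the starved KO-labelled libraries (orange triangles) lie between in most rows.

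In starved cells the difference between the labels was smaller but still covered nearly the whole set. Of the 42 genes, 41 were higher in starved KO-labelled than in starved WT cells, 34 of them at least 4-fold, and 0 were lower, also at an unadjusted p under 0.05 and by DESeq2. The median log2 fold change was 4.94, or 4.30 when genes with 0 counts in starved WT libraries are put at the lower bound of their fold, against 0.07 over all genes. Over all genes, 41.9% were called higher, 37.7% lower and 11.7% higher by at least 4-fold. With library totals in place of TMM scaling, the calls over all genes were 67.4% higher, against 52.6%. Cxcl10, a chemokine that draws T cells, was not called (log2 fold change -0.28 ± 0.18, adjusted p = 0.158).

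**Figure D3:**
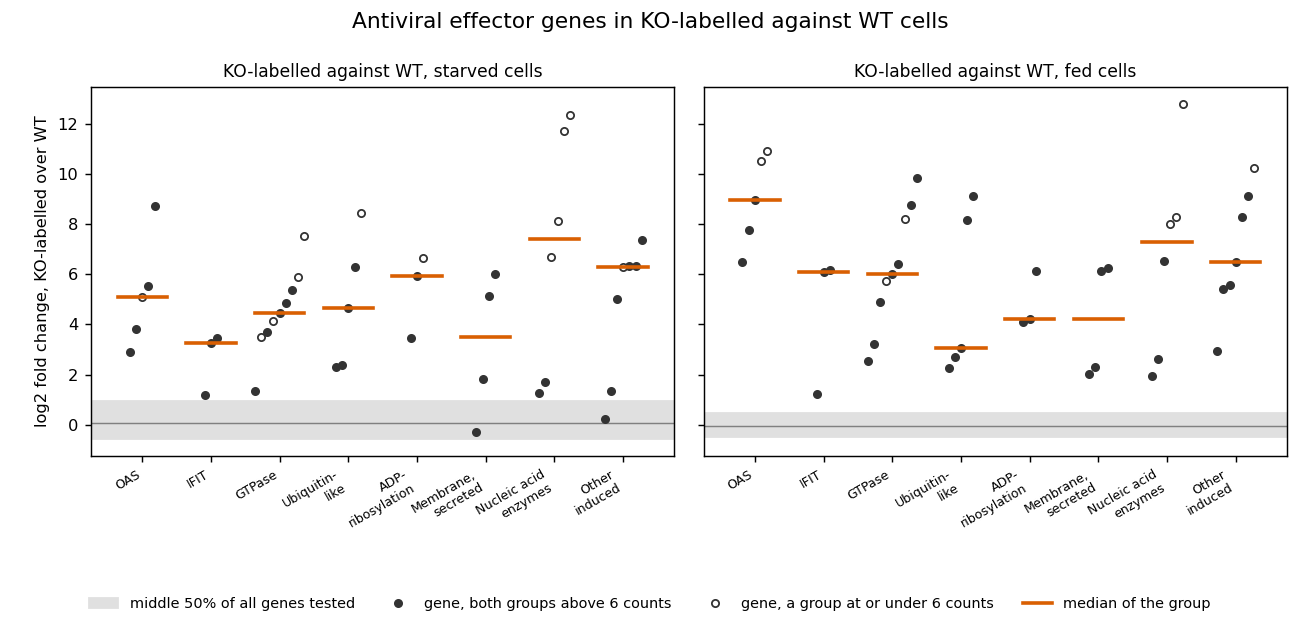
Log2 fold change of KO-labelled over WT cells for each of the 42 genes, by functional group, in starved cells (left) and fed cells (right). Open circles mark genes with a group at or under 6 counts over its libraries, whose fitted value is uncertain; the grey band holds the middle 50% of all genes tested, and the group medians run from 3.26 to 7.43 in starved and from 3.05 to 8.99 in fed cells. The 7.43 belongs to the nucleic acid and nucleotide enzymes. With genes at 0 counts in starved WT libraries put at their bound, it is 2.40, the lowest group median. The 8.99 in fed cells is the OAS median. Oas1a, Oas2, Oas3 and Oasl1 passed the filter through the KO-labelled libraries alone, so this median is not ranked against the others.

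Starvation lowered the set in KO-labelled cells. Of the 42 genes, 41 fell and 0 rose by edgeR's test, also at an unadjusted p under 0.05 and by DESeq2. By at least 4-fold, 31 of them fell, and the median log2 fold change was -2.74, against -0.02 over all genes. Over all genes tested, 40.3% were called lower, 39.4% higher and 8.55% lower by at least 4-fold. Of all calls, 49.4% were higher with TMM scaling and 37.1% with library totals. The starved KO-labelled mean was a median of 14.9% of the fed mean, and the range ran from 1.03% for Iigp1 to 114% for Rsad2. Both starved KO-labelled libraries lay above both fed WT libraries for 37 of the 42 genes. The starved KO-labelled libraries lay below the fed WT ones for Irgm1, Cxcl10 and Eif2ak2 and overlapped them for Ifit2 and Gbp7. No such count was made over all genes, and 14 of the 42 passed the filter through the KO-labelled libraries alone. The 37 therefore describes these genes and is not evidence for a direction.

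In WT cells starvation gave a mixed picture. Of the 42 genes, 23 (54.8%) fell, 5 rose (Mx2, Bst2, Adar, Rtp4 and Ifi35) and 14 were not called, with 14 lower by at least 4-fold. Over all genes, 44.8% were called lower, 36.7% higher and 14.3% lower by at least 4-fold. The median log2 fold change was -1.25, against -0.17 over all genes. Scaling by library totals moved the median of all genes to -0.63 and the share of higher calls to 28.3%, against 45.0% with TMM, and the genes of the set that rose then numbered 2, Mx2 and Rtp4, with Ifi35 called lower. Depth limits this comparison, since 12 of the genes had at most 6 counts over both starved WT libraries and 8 had at most 6 over both fed WT libraries.

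**Figure D4:**
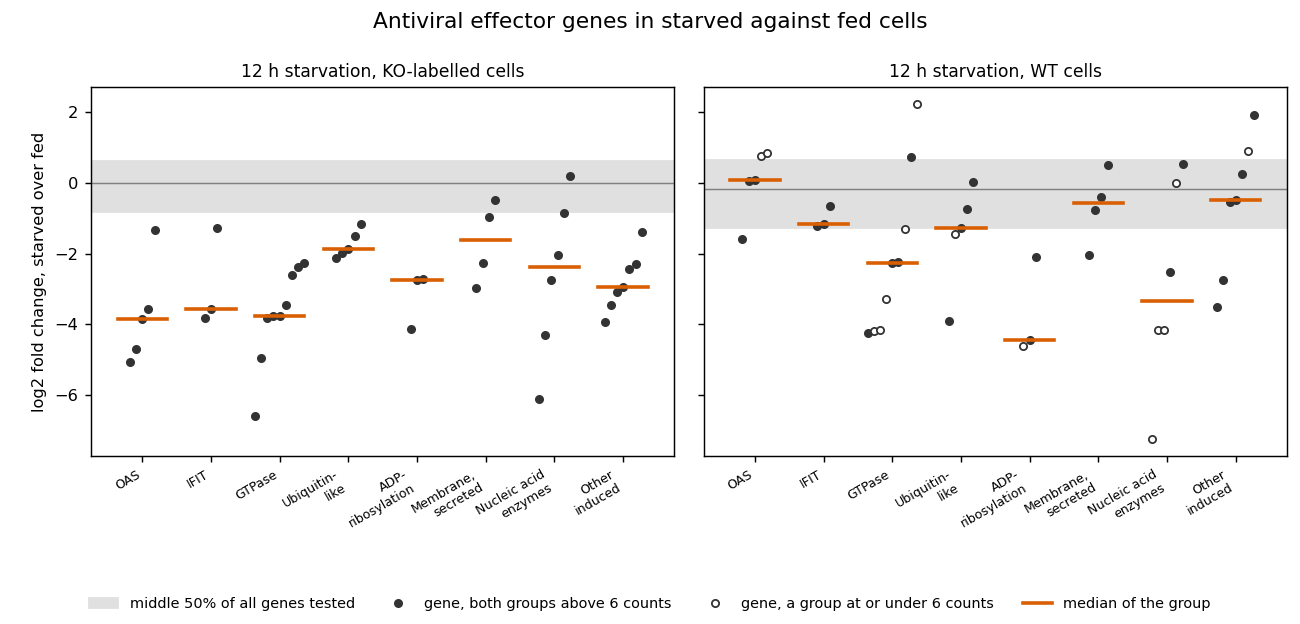
Log2 fold change of starved over fed cells for each of the 42 genes, by functional group, in KO-labelled cells (left) and WT cells (right). In KO-labelled cells every group median lies between -3.84 and -1.62, while in WT cells they run from -4.43 to 0.08, with open circles for genes that have a group at or under 6 counts.

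Whether the starvation response differed between the labels was tested with an interaction, the log2 change on starvation in KO-labelled cells minus that in WT cells. It was called below 0 for 25 genes and above 0 for 4, and 13 were not called. Over all genes, 30.4% were called below 0 and 34.1% above. The median interaction was -1.10, against 0.10 over all genes. Of the 28 genes with more than 6 counts in each group, 20 were called below 0, 3 (Gbp2, Parp9 and Uba7) above 0, and 5 were not called. Among the 20, Oas3, Oasl1, Irgm2 and Ifi44 had few WT counts and passed the filter through the KO-labelled libraries alone. Their calls are therefore not evidence for a direction. All 20 fell in KO-labelled cells. In WT cells Rtp4, Adar, Bst2 and Ifi35 of these rose, and the others fell less or were not called. With library totals in place of TMM scaling the share of interaction calls above 0 among all genes was 67.1%, against 52.9% with TMM.

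The OAS family makes short oligoadenylates that activate the RNA-cutting enzyme RNase L when it meets double-stranded RNA, with Oasl1 and Oasl2 as OAS-like relatives. No WT library held more than 34 counts of any of these 5 genes. Their median log2 fold change in fed KO-labelled over fed WT cells was 8.99, but Oas1a, Oas2, Oas3 and Oasl1 passed the filter through the KO-labelled libraries alone and 2 of them had a fed WT group at or under 6 counts, so this median is not set against those of other families. Oas1a had 46.2 and 47.8 CPM in starved and 121 and 118 CPM in fed KO-labelled libraries, against 5 and 2 counts in starved and 4 and 1 counts in fed WT libraries. Oas2 had 2.04 and 2.34 CPM in starved and 55.4 and 58.1 CPM in fed KO-labelled libraries, against 4 and 0 counts in starved and 3 and 0 counts in fed WT libraries. Neither gene overlapped between the labels, and both WT groups lay at or near 3 counts per library, the floor used here. The ratio of fed KO-labelled to fed WT cells was 2025 (95% interval 868 to 6239) for Oas1a and 1604 (95% interval 549 to 7779) for Oas2, with exact intervals that cover counting error alone.

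Oas3 had 2.06 and 1.93 CPM in starved and 67.2 and 66.9 CPM in fed KO-labelled libraries, against 0.0921 and 0.182 CPM in starved and 0.0695 and 0.191 CPM in fed WT libraries. Oasl1 had 1.04 and 0.812 CPM in starved and 11.9 and 9.66 CPM in fed KO-labelled libraries, against 0.0614 and 0.182 CPM in starved and 0.185 and 0.0479 CPM in fed WT libraries. Oasl2 had 9.02 and 8.20 CPM in starved and 124 and 122 CPM in fed KO-labelled libraries, against 0.123 and 0.242 CPM in starved and 0.301 and 0.814 CPM in fed WT libraries. In all 3, starved KO-labelled libraries lay below the fed ones and above every WT library. In fed cells the log2 fold changes of KO-labelled over WT cells were 8.99 ± 0.16, 6.49 ± 0.32 and 7.79 ± 0.13 in that order. On starvation of KO-labelled cells the family fell as a whole, with log2 fold changes of -5.07 ± 0.10 for Oas3, -4.69 ± 0.12 for Oas2, -3.84 ± 0.08 for Oasl2 and -3.55 ± 0.22 for Oasl1. Oas1a fell less, by 1.34 ± 0.05 on the log2 scale, and kept 39.5% of its fed level, where the other members kept 2.98 to 8.60%. In WT cells Oasl2 alone was called on starvation (-1.58 ± 0.50, adjusted p = 0.00626 by edgeR), and that call was lost without the starved WT replicate 1 or the fed WT replicate 2, with adjusted p of 0.0669 and 0.250. Since Oas1a, Oas2, Oas3 and Oasl1 passed the filter through the KO-labelled libraries alone, the sign of their interaction is not evidence for a direction. The interaction was below 0 for all 5 genes, and Oas1a and Oas2 had a WT group at or under the floor. Without the starved WT replicate 1 it was lost for Oas1a and Oas2 (adjusted p = 0.326 and 0.846), without the starved WT replicate 2 for Oasl1 and Oasl2 (0.127 and 0.110) and without the fed WT replicate 2 for Oas1a (0.122), while that of Oas3, -5.15 ± 0.80, was called in each. Oas1a has the related genes Oas1g and Oas1b, and whether reads were split among them was not tested. Oas1g had a like pattern, with 21.6 and 22.0 CPM in starved and 55.7 and 48.0 CPM in fed KO-labelled libraries. In WT libraries Oas1g had 3 and 2 counts when starved and 1 and 3 counts when fed.

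The IFIT proteins bind viral RNA whose cap lacks the marks of host RNA. Of the 3 genes, Ifit1 and Ifit3 moved alike and Ifit2 stood apart. Ifit1 had 9.49 and 8.47 CPM in starved and 122 and 130.3 CPM in fed KO-labelled libraries, against 1.08 and 0.545 CPM in starved and 1.44 and 2.20 CPM in fed WT libraries. Ifit3 had 8.67 and 9.73 CPM in starved and 109 and 110.4 CPM in fed KO-labelled libraries, against 0.829 and 1.09 CPM in starved and 1.34 and 1.70 CPM in fed WT libraries. Both were far higher in fed KO-labelled libraries than elsewhere, and their starved KO-labelled libraries stayed above all WT libraries. In fed cells Ifit1 was higher in KO-labelled than in WT cells by 6.12 ± 0.11 and Ifit3 by 6.17 ± 0.09 on the log2 scale, and on starvation of KO-labelled cells they fell by 3.82 ± 0.08 and 3.57 ± 0.07. Ifit2 had 25.6 and 23.3 CPM in starved and 59.6 and 58.8 CPM in fed KO-labelled libraries, against 11.0 and 10.7 CPM in starved and 25.8 and 24.9 CPM in fed WT libraries. Its starved KO-labelled and fed WT libraries overlapped. Ifit2 fell in both labels, by 1.28 ± 0.06 in KO-labelled and 1.23 ± 0.08 in WT cells, and its interaction of -0.06 ± 0.10 was not called (adjusted p = 0.642), whereas those of Ifit1 and Ifit3 were -2.65 ± 0.35 and -2.91 ± 0.27. The promoter window of Ifit2 held no ISRE core, where those of Ifit1 and Ifit3 held 3 each. Whether this bears on their levels was not tested. Over all members with a window, the median log2 fold change of fed KO-labelled over fed WT cells was 6.15 with an ISRE core and 6.26 without.

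All 9 interferon-induced GTPases fell by at least 4-fold on starvation of KO-labelled cells, with log2 fold changes from -6.57 to -2.27. Over all genes tested, 8.55% were called lower by at least 4-fold. Mx1, Mx2, Iigp1 and Irgm2 passed the filter through the KO-labelled libraries alone, so the 9 describes these genes and is not evidence for a direction. The group comprises the dynamin-like Mx1 and Mx2, which trap viral nucleocapsids and carry inactivating changes in C57BL/6 mice, the immunity-related GTPases Iigp1, Irgm1, Irgm2 and Igtp, which act on vacuoles around pathogens, and the guanylate-binding proteins Gbp2, Gbp3 and Gbp7. Mx1 had 0.732 and 0.302 CPM in starved and 2.56 and 2.72 CPM in fed KO-labelled libraries, against 0 and 0 counts in starved and 4 and 0 counts in fed WT libraries. Mx2 had 2.68 and 3.36 CPM in starved and 14.1 and 15.3 CPM in fed KO-labelled libraries, against 9 and 6 counts in starved and 2 and 2 counts in fed WT libraries. Mx2 thus rose on starvation in WT cells, from a few counts (ratio 4.86 (95% interval 1.55 to 20.1), adjusted p = 0.00958 by edgeR, 0.0569 without the starved WT replicate 1), while it fell by 2.27 ± 0.14 in KO-labelled cells.

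Iigp1 showed the deepest fall of the set. It had 0.421 and 0.661 CPM in starved and 53.2 and 52.2 CPM in fed KO-labelled libraries, against 2 and 1 counts in starved and 4 and 6 counts in fed WT libraries. Its log2 change on starvation of KO-labelled cells was -6.57 ± 0.13, which left 1.03% of the fed level. Irgm2 had 6.30 and 5.37 CPM in starved and 78.1 and 80.0 CPM in fed KO-labelled libraries, against 5 and 4 counts in starved and 1 and 6 counts in fed WT libraries. Igtp had 3.97 and 3.72 CPM in starved and 50.6 and 53.3 CPM in fed KO-labelled libraries, against 1 and 3 counts in starved and 28 and 24 counts in fed WT libraries. Irgm1 had 14.1 and 13.1 CPM in starved and 144 and 151 CPM in fed KO-labelled libraries, against 4.76 and 6.06 CPM in starved and 26.0 and 24.9 CPM in fed WT libraries. When fed, Irgm1 had a label difference of 2.54 ± 0.06, against 6.40 ± 0.13 for Igtp, and its starved KO-labelled libraries dropped below its fed WT libraries. The label difference of Irgm2 when fed was 9.86 ± 0.17. Mx1, Mx2, Iigp1 and Irgm2 passed the filter through the KO-labelled libraries alone, so their label differences are not ranked against the others. Irgm1 fell in both labels, by 3.45 ± 0.06 in KO-labelled and 2.23 ± 0.09 in WT cells, with an interaction of -1.21 ± 0.12.

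Among the guanylate-binding proteins, Gbp2 fell further in WT cells and Gbp3 further in KO-labelled cells. Gbp2 had 9.0 and 8.99 CPM in starved and 54.7 and 54.6 CPM in fed KO-labelled libraries, against 0.246 and 0.363 CPM in starved and 5.37 and 6.22 CPM in fed WT libraries. Gbp3 had 4.43 and 5.10 CPM in starved and 67.7 and 66.7 CPM in fed KO-labelled libraries, against 0.184 and 0.242 CPM in starved and 0.973 and 1.13 CPM in fed WT libraries. Gbp7 had 1.09 and 1.13 CPM in starved and 33.3 and 35.7 CPM in fed KO-labelled libraries, against 0 and 0.121 CPM in starved and 1.04 and 1.27 CPM in fed WT libraries. All 3 were called lower on starvation in both labels, though Gbp7 had 0 and 4 counts in starved WT libraries, a group at or under the floor. Gbp2 fell by 2.60 ± 0.08 in KO-labelled and 4.24 ± 0.21 in WT cells, an interaction of 1.63 ± 0.29 (adjusted p = 3.91e-05), the opposite sign to Gbp3 at -1.53 ± 0.46. The Gbp3 interaction was lost without the starved WT replicate 2 (adjusted p = 0.0728). In starved cells KO-labelled libraries were higher than WT ones for all 9 GTPases, 8 of them at least 4-fold, with Irgm1 at 1.32 ± 0.09. Over all genes tested, 41.9% were called higher there and 11.7% higher by at least 4-fold.

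The ubiquitin-like system attaches ISG15 to other proteins: Isg15 encodes the modifier, Uba7 its activating enzyme, Herc6 the main mouse ligase, Usp18 the enzyme that removes it and also restrains the interferon receptor, and Trim25 a ubiquitin ligase of the RNA sensor RIG-I. On starvation of KO-labelled cells these 5 genes kept a median of 27.5% of their fed level (range 22.7 to 44.6%), against 7.01% (2.98 to 39.5%) for OAS, 8.40% (7.12 to 41.2%) for IFIT and 7.41% (1.03 to 20.6%) for GTPase genes. The ranges of the OAS and IFIT genes overlap that of the ubiquitin-like genes, through Oas1a and Ifit2, and the difference between families was not tested. Of the 5, Usp18 alone fell by at least 4-fold, as did 8.55% of all genes tested. Isg15 had 55.4 and 54.2 CPM in starved and 198 and 201 CPM in fed KO-labelled libraries, against 0.798 and 0.606 CPM in starved and 0.556 and 0.838 CPM in fed WT libraries. Usp18 had 28.0 and 27.1 CPM in starved and 119 and 123 CPM in fed KO-labelled libraries, against 3 and 2 counts in starved and 8 and 10 counts in fed WT libraries. Both had few counts in WT cells and were higher in fed KO-labelled cells by 8.16 ± 0.09 for Isg15 and 9.14 ± 0.11 for Usp18 on the log2 scale. Isg15 was not called on starvation of WT cells (0.01 ± 0.26, adjusted p = 0.972).

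Uba7 had 6.18 and 7.61 CPM in starved and 26.8 and 28.1 CPM in fed KO-labelled libraries, against 0.184 and 0.363 CPM in starved and 4.17 and 4.16 CPM in fed WT libraries. Herc6 had 11.7 and 9.39 CPM in starved and 24.4 and 22.9 CPM in fed KO-labelled libraries, against 2.12 and 1.94 CPM in starved and 5.21 and 4.59 CPM in fed WT libraries. Trim25 had 45.5 and 44.4 CPM in starved and 129 and 125 CPM in fed KO-labelled libraries, against 8.29 and 10.1 CPM in starved and 15.8 and 14.7 CPM in fed WT libraries. These 3 had smaller label differences when fed than Isg15, 2.72 ± 0.12 for Uba7, 2.27 ± 0.12 for Herc6 and 3.05 ± 0.06 for Trim25. Usp18 passed the filter through the KO-labelled libraries alone, so its difference is not ranked against these. Starvation lowered all 3 in both labels. Uba7 fell further in WT cells, by 3.91 ± 0.27, than in KO-labelled cells, by 1.99 ± 0.11 (interaction 1.93 ± 0.34, adjusted p = 4.20e-05), Trim25 fell further in KO-labelled cells (interaction -0.76 ± 0.10), and the interaction of Herc6 was not called (0.10 ± 0.20). As a result the label difference of Uba7 was larger in starved cells, 4.64 ± 0.24, than in fed cells.

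Of the ADP-ribosylation genes, Parp9 and Dtx3l encode partners in 1 complex, and Parp14 a mono-ADP-ribosyltransferase. Parp9 had 17.6 and 16.1 CPM in starved and 111 and 112 CPM in fed KO-labelled libraries, against 0.246 and 0.303 CPM in starved and 5.84 and 6.15 CPM in fed WT libraries. Parp14 had 6.56 and 6.20 CPM in starved and 113 and 108 CPM in fed KO-labelled libraries, against 0.123 and 0 CPM in starved and 1.32 and 1.80 CPM in fed WT libraries. Both were called lower on starvation in both labels, though Parp14 had 4 and 0 counts in starved WT libraries, a group at or under the floor. Dtx3l had 9.0 and 11.2 CPM in starved and 69.7 and 65.9 CPM in fed KO-labelled libraries, against 1.08 and 0.787 CPM in starved and 4.28 and 3.71 CPM in fed WT libraries. Parp9 fell by 2.73 ± 0.06 in KO-labelled and 4.43 ± 0.20 in WT cells (interaction 1.71 ± 0.27), while its partner Dtx3l fell by 2.74 ± 0.09 and 2.10 ± 0.21 (interaction -0.64 ± 0.26, adjusted p = 0.0397). The Dtx3l interaction did not hold with library totals (adjusted p = 0.149), with summed rows (0.0548) or without the fed WT replicate 2, the starved WT replicate 1, the fed KO-labelled replicate 1 or the starved KO-labelled replicate 1 (adjusted p = 0.0681 to 0.202). Parp9 and Dtx3l lie head to head on chromosome 16 and overlap at their ends in RefSeq, and whether counting used strand is not given in the sources used here.

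Among the membrane and secreted products, Bst2 (tetherin, which holds budding virions at the cell surface) kept the most of its level. Bst2 had 274 and 271 CPM in starved and 389 and 375 CPM in fed KO-labelled libraries, against 7.37 and 7.96 CPM in starved and 5.40 and 5.38 CPM in fed WT libraries. Lgals3bp, a secreted glycoprotein, had 159.8 and 155 CPM in starved and 762 and 764 CPM in fed KO-labelled libraries, against 2.15 and 2.63 CPM in starved and 9.66 and 10.2 CPM in fed WT libraries. In starved cells Bst2 was 35.6-fold and Lgals3bp 65.6-fold higher in KO-labelled than in WT libraries, and in fed cells 70.8-fold and 76.7-fold. Bst2 fell by 0.49 ± 0.03 on starvation of KO-labelled cells and rose by 0.51 ± 0.08 in WT cells, though the rise was lost with library totals (log2 fold change 0.05, adjusted p = 0.602). Ifitm3, which blocks viral entry, had 365 and 370.2 CPM in starved and 715 and 723 CPM in fed KO-labelled libraries, against 103 and 104 CPM in starved and 176 and 179.6 CPM in fed WT libraries. It fell by 0.97 ± 0.03 in KO-labelled and 0.78 ± 0.03 in WT cells. Its interaction of -0.19 ± 0.04 turned to 0.01 with library totals and was then not called (adjusted p = 0.851).

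Cxcl10 had 2.53 and 2.08 CPM in starved and 17.5 and 18.8 CPM in fed KO-labelled libraries, against 2.73 and 2.85 CPM in starved and 4.12 and 3.21 CPM in fed WT libraries. The starved KO-labelled libraries thus lay slightly under both WT groups. Its fall was 2.98 ± 0.14 in KO-labelled cells. The fall in WT cells of 0.39 ± 0.17 (adjusted p = 0.0416 by edgeR) was not called by DESeq2 (adjusted p = 0.131) and was lost without either fed KO-labelled library, without either starved WT library or without the fed WT replicate 1 (adjusted p = 0.058 to 0.375). In RefSeq, Cxcl10 lies within the span of Art3.

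The enzymes of nucleic acids and nucleotides held the sharpest contrast of the set, between Rsad2 (viperin, which makes a chain-ending nucleotide) and Cmpk2 (a mitochondrial nucleotide kinase), which are neighbours on chromosome 12. Rsad2 had 13.8 and 15.3 CPM in starved and 12.8 and 12.7 CPM in fed KO-labelled libraries, against 0 and 0 counts in starved and 2 and 2 counts in fed WT libraries. Cmpk2 had 0.266 and 0.302 CPM in starved and 18.7 and 21.3 CPM in fed KO-labelled libraries, against 0 counts in all 4 WT libraries. Both were on in fed KO-labelled cells and off or nearly off in WT cells, but on starvation the Rsad2 libraries stayed slightly above the fed ones while Cmpk2 kept 1.42% of its fed level. The log2 change on starvation of KO-labelled cells was 0.19 ± 0.11 for Rsad2 (adjusted p = 0.103) and -6.11 ± 0.20 for Cmpk2 (adjusted p = 6.04e-16, both by edgeR). Rsad2 was the single member that was not called lower, and Cmpk2 had the second deepest fall. Against 0 counts in starved WT libraries, Rsad2 was at least 159.7-fold and Cmpk2 at least 3.12-fold higher in starved KO-labelled cells, and Cmpk2 was at least 281-fold higher in fed KO-labelled than in fed WT cells. Of the printed windows, that of Rsad2 held an ISRE core and that of Cmpk2 none. Whether this bears on their levels was not tested. Over all members with a window, the median log2 change on starvation of KO-labelled cells was -2.94 with an ISRE core and -2.43 without.

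**Figure D5:**
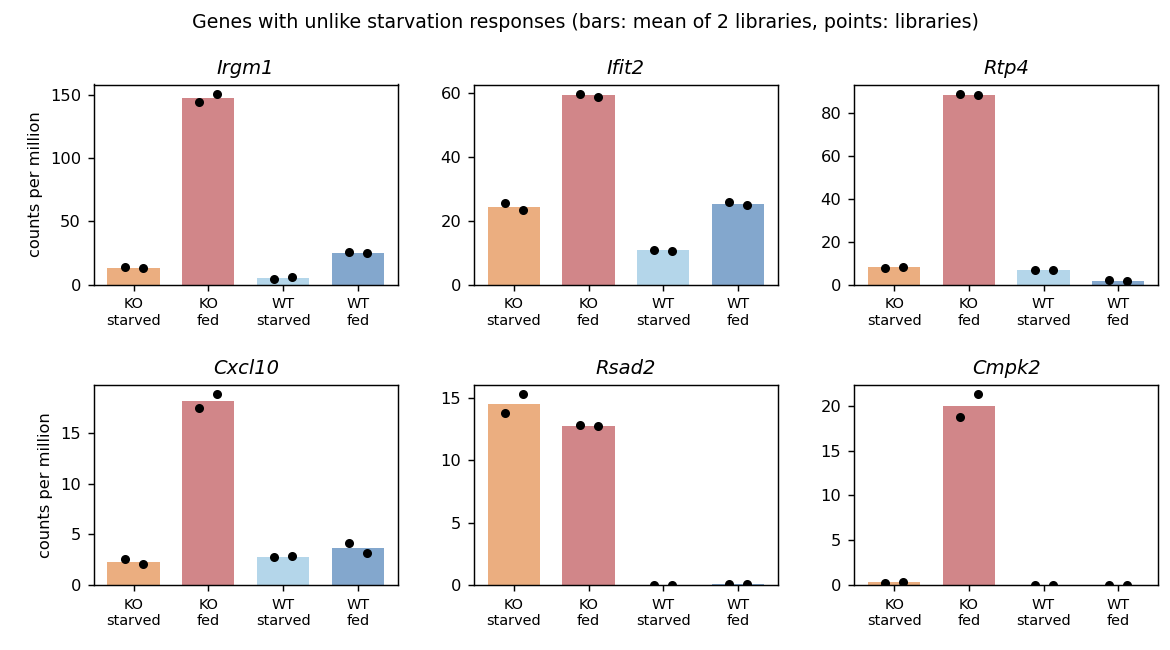
CPM of 6 genes by group, with bars at the mean of 2 libraries and points for the libraries; each panel has its own linear axis from 0. Rsad2 had 13.8 and 15.3 CPM in starved against 12.8 and 12.7 CPM in fed KO-labelled libraries, while Cmpk2, Cxcl10, Rtp4, Irgm1 and Ifit2 fell there.

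Ddx60, a helicase that aids RNA sensing, had 0.887 and 0.699 CPM in starved and 15.7 and 15.6 CPM in fed KO-labelled libraries, against 0 and 0 counts in starved and 2 and 2 counts in fed WT libraries. Apobec3, a cytidine deaminase that mutates retroviral DNA, had 9.62 and 9.33 CPM in starved and 37.8 and 40.2 CPM in fed KO-labelled libraries, against 0 and 0 counts in starved and 19 and 16 counts in fed WT libraries. Starved WT cells therefore had no count of either gene, and Apobec3 was at least 4.50-fold lower in starved than in fed WT cells. Eif2ak2 had 24.0 and 24.2 CPM in starved and 159 and 164 CPM in fed KO-labelled libraries, against 7.28 and 7.51 CPM in starved and 42.4 and 41.8 CPM in fed WT libraries, and fell by 2.74 ± 0.05 in KO-labelled and 2.51 ± 0.06 in WT cells. Adar, which edits double-stranded RNA, had 90.4 and 91.7 CPM in starved and 169 and 161 CPM in fed KO-labelled libraries, against 34.6 and 41.5 CPM in starved and 26.8 and 26.2 CPM in fed WT libraries. Adar moved in opposite directions: it fell by 0.85 ± 0.05 in KO-labelled cells and rose by 0.52 ± 0.07 in WT cells, with an interaction of -1.38 ± 0.08 (adjusted p = 6.90e-12), though its rise in WT cells was 0.07 and not called with library totals (adjusted p = 0.340).

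The remaining 7 genes all fell on starvation of KO-labelled cells, 6 of them by at least 4-fold. Over all genes tested, 40.3% were called lower and 8.55% lower by at least 4-fold. Sp100, a component of nuclear bodies, had 3.57 and 4.02 CPM in starved and 30.8 and 33.8 CPM in fed KO-labelled libraries, against 2 and 1 counts in starved and 2 and 0 counts in fed WT libraries. Ifi44 had 28.6 and 28.5 CPM in starved and 140.1 and 141 CPM in fed KO-labelled libraries, against 0.246 and 0.0908 CPM in starved and 0.301 and 0.191 CPM in fed WT libraries. Rtp4, a chaperone of receptors on their way to the surface, had 7.78 and 8.29 CPM in starved and 88.8 and 88.3 CPM in fed KO-labelled libraries, against 6.94 and 6.72 CPM in starved and 1.99 and 1.68 CPM in fed WT libraries. Rtp4 showed the clearest opposite movement of the set. It fell by 3.46 ± 0.07 in KO-labelled cells and rose by 1.89 ± 0.13 in WT cells, an interaction of -5.35 ± 0.14 (adjusted p = 1.91e-17), so that a label difference of 5.59 ± 0.09 in fed cells was 0.24 ± 0.09 in starved cells. That last difference (adjusted p = 0.0254 by edgeR) was not called by DESeq2 (adjusted p = 0.156) and was lost without the starved KO-labelled replicate 2 or either starved WT library (adjusted p = 0.139 to 0.275). Ifi35 had 25.7 and 26.3 CPM in starved and 65.2 and 70.8 CPM in fed KO-labelled libraries, against 9.79 and 10.9 CPM in starved and 9.29 and 8.35 CPM in fed WT libraries. It fell by 1.39 ± 0.06 in KO-labelled cells and rose by 0.23 ± 0.09 in WT cells, where library totals turned the change to -0.22 (adjusted p = 0.0314) and the call was lost without the fed WT replicate 2 or the starved WT replicate 2 (0.192 and 0.067). Xaf1, Samd9l and Trim30a fell by 2.43 ± 0.05, 3.93 ± 0.06 and 2.94 ± 0.07 in KO-labelled cells.

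Among other genes of the pathway, the interferon genes had few counts apart from Ifnz. Of 19 interferon genes in the table, Ifnz alone passed the filter, with 7 and 32 counts in starved and 73 and 56 counts in fed KO-labelled libraries, against 2 and 0 counts in starved and 28 and 17 counts in fed WT libraries. Ifnb1 had 5 and 6 counts in starved and 6 and 2 counts in fed KO-labelled libraries, against 0 and 4 counts in starved and 0 and 0 counts in fed WT libraries, and no library held more than 4 counts of any other interferon gene. Ifnz was higher in fed KO-labelled than in fed WT cells (1.12 ± 0.48, adjusted p = 0.0438 by edgeR). It fell on starvation of KO-labelled cells (-1.55 ± 0.49, adjusted p = 0.00720) and of WT cells (adjusted p = 0.000925, both by edgeR). Its starved KO-labelled libraries differed, and its starved WT group was at or under the floor. The other interferon genes were too low to be tested.

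Of 19 tested receptor and signalling genes, 14 (73.7%) were higher and 1 lower in fed KO-labelled than in fed WT cells, against 34.5% higher and 39.8% lower over all genes. Among the leading genes were Irf7, a factor that drives interferon genes, and Ifnlr1, a receptor subunit for type III interferon. Irf7 had 60.4 and 59.9 CPM in starved and 134 and 133 CPM in fed KO-labelled libraries, against 0.461 and 0.212 CPM in starved and 0.625 and 0.526 CPM in fed WT libraries. Irf7 was higher in fed KO-labelled cells by 7.85 ± 0.09 on the log2 scale, and on starvation of these cells it fell by 1.15 ± 0.05. Ifnlr1 had 76 and 85 counts in fed KO-labelled and 0 and 2 counts in fed WT libraries. Genes with so few WT counts could pass the filter on low counts through the KO-labelled libraries. The counts over this list therefore describe it and are not evidence for a direction. On starvation, 12 of the 19 fell and 3 rose in KO-labelled cells, and 13 fell and 3 rose in WT cells, against 40.3% and 44.8% of all genes called lower.

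Of 12 tested sensors of foreign nucleic acid, 10 were higher and 1 lower in fed KO-labelled than in fed WT cells, led by Zbp1 (7.41 ± 0.28) and Dhx58 (5.11 ± 0.17). On starvation 10 fell and 2 rose in KO-labelled cells, and 7 fell and 3 rose in WT cells. Of 45 other tested interferon-stimulated genes, 41 were higher and 1 lower in fed KO-labelled cells, led by Oas1g, Ifi27l2a and Oas1b. Over all genes tested, 34.5% were called higher and 39.8% lower in this comparison. No WT library held more than 6 counts of Zbp1, Oas1g, Ifi27l2a or Oas1b. Such genes could pass the filter on low counts through the KO-labelled libraries. The counts over both lists therefore describe them and are not evidence for a direction. Ifi27l2a had 23.2 and 21.9 CPM in starved and 58.5 and 66.4 CPM in fed KO-labelled libraries, against 2 and 3 counts in starved and 2 and 5 counts in fed WT libraries. On starvation 38 of the 45 fell and 4 rose in KO-labelled cells, and 26 fell and 5 rose in WT cells. Of all genes, 40.3% were called lower in KO-labelled and 44.8% in WT cells, so the shares in WT cells, 57.8% of these 45 and 58.3% of the 12 sensors, lie nearer to the share of all genes than the shares in KO-labelled cells, 84.4% and 83.3%.

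Markers of other cells differed between the groups as well. In KO-labelled libraries the sum of 14 blood cell markers was 54.6 and 55.0 CPM when starved and 25.1 and 25.4 CPM when fed. In WT libraries it was 7.43 and 10.8 CPM when starved and 22.3 and 23.4 CPM when fed. This sum was highest in starved KO-labelled cells, where Cd68 alone had 40.9 and 40.7 CPM. Of the 14 markers, 6 were at 0 throughout. On starvation of KO-labelled cells, 3 of the 6 tested markers rose (Cd68, Csf1r and Fcer1g) and 2 fell (Cd14 and Ly6c2). Cd68, a lysosomal protein gene, had 1845 and 2153 counts in starved and 224 and 169 in fed KO-labelled libraries. Csf1r had 272 and 340 counts in starved and 27 and 20 in fed KO-labelled libraries, and Fcer1g 18 and 19 against 0 and 3. The sum of 5 endothelial markers was 5.41 and 5.50 CPM in starved and 4.15 and 2.76 CPM in fed KO-labelled libraries, against 54.9 and 52.9 CPM in starved and 2.29 and 2.51 CPM in fed WT libraries, and was carried by Kdr, while Emcn was at 0 in all libraries. The 5 epithelial markers summed to at most 2.83 CPM in any library. The part of such cells in the differences of the antiviral genes was not tested.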

How the data were processed

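The deposited table gives raw read counts, as whole numbers, for RefSeq transcripts: 31055 rows for 23366 symbols. Bedtools, TopHat2 2.0.9 and mouse build mm9 are listed per the submitters' processing notes; strandedness, multi-mapped reads and filters are not stated in these sources. A further 4 columns of values matched no sample and were not used. Groups and replicate numbers came from sample titles.

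Transcripts of 1 gene can share reads, so the most heavily counted row stood for each symbol. After TMM scaling, filterByExpr kept 14418 genes. The quasi-likelihood F test of edgeR 4.0.16 (R 4.3.3) was run on a model of the 4 group means with all 8 libraries, which leaves 4 residual degrees of freedom, and p-values had Benjamini-Hochberg adjustment. The model was also run on simulated data, but the outcome is not given here and is not used as support for the calls. Fold changes are log2 values ± a standard error derived from the F statistic. CPM are counts per 1000000 of the TMM-scaled library total, and fold changes are relative to that scaling. The floor was 3 counts per library, or 0.0486 to 0.0921 CPM. Against 0 counts a fold is a lower bound at this floor over both libraries; against 1 to 6 counts over both libraries the plain ratio is given, with exact 95% bounds by Clopper-Pearson. Neither bounds nor floors include variation beyond counting.

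The 42 genes, the functional groups and the pathway and marker lists were chosen with earlier results of these data known. Values per library are given for the 4 families and, in each other group, for the 2 genes with the largest change between labels when fed and for genes called against the sign of their group, and in each pathway list up to 3 genes with the largest such change are named, of which 1 is not reported here. Ifitm3, Cxcl10, Rsad2, Eif2ak2 and the figure of 6 genes were added after their values were seen. Alternatives were library totals, DESeq2 1.42.0, other filters, summed rows, a replicate block and leaving out each library; their use on the counts of at least 4-fold changes was chosen after seeing the data. Promoter windows come from a RefSeq table of another build (GRCm38.p6) than the counts, and the end of each printed window was checked against annotated transcripts. Oas2, Mx1, Mx2, Iigp1, Usp18, Parp9, Parp14 and Rtp4 had no window there.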

Additional observations from a re-analysis of the deposited data

Results flagged for a closer look

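Starvation effects that differed between the labels, by the interaction test in edgeR at an adjusted p under 0.05, are listed here as the log2 change on starvation in KO-labelled cells minus that in WT cells. No group has more than 2 libraries, so single outlying libraries could not be sought.

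Among genes with more than 6 counts in every group, the OAS and IFIT genes had values of -5.15 for Oas3, -3.60 for Oasl1, -2.26 for Oasl2, -2.91 for Ifit3 and -2.65 for Ifit1. The GTPases had -4.48 for Irgm2, -1.53 for Gbp3, -1.21 for Irgm1 and 1.63 for Gbp2. The ubiquitin-like and ADP-ribosylation genes had -1.88 for Isg15, -0.76 for Trim25, 1.93 for Uba7, -0.64 for Dtx3l and 1.71 for Parp9. The other genes had -5.35 for Rtp4, -2.59 for Cxcl10, -1.94 for Xaf1, -1.75 for Ifi44, -1.62 for Ifi35, -1.38 for Adar, -0.99 for Bst2, -0.23 for Eif2ak2 and -0.19 for Ifitm3. Of these genes, Oas3, Oasl1, Irgm2 and Ifi44 passed the filter through the KO-labelled libraries alone, so their calls are not evidence for a direction. The call of Ifi44 was lost without the starved WT replicate 1 (-1.01, adjusted p = 0.389), and that of Eif2ak2 with library totals (-0.03, adjusted p = 0.770), without the fed WT replicate 2 (adjusted p = 0.0505) and without the fed KO-labelled replicate 2 (adjusted p = 0.0785). Those of Oasl1, Oasl2, Gbp3, Dtx3l and Ifitm3 were also lost under an alternative, as given with each gene above. Adar, Bst2, Ifi35 and Rtp4 fell in both starved KO-labelled libraries and rose in both starved WT libraries relative to all fed libraries of their label; with library totals in place of TMM scaling the rise in WT cells was called for Rtp4 but not for Adar or Bst2, and Ifi35 was lower.

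For 6 further genes a WT group was at or under 6 counts over its libraries, so the fitted value is no measure of size: -5.43 for Oas2, -5.26 for Iigp1, -4.48 for Mx2, -3.96 for Sp100, -2.17 for Oas1a and 5.18 for Apobec3. The call of Iigp1 was lost without the starved WT replicate 1 (adjusted p = 0.0650), and that of Sp100 without the starved WT replicate 1 (adjusted p = 0.170) or the fed WT replicate 2 (adjusted p = 0.0574). Those of Oas1a and Oas2 were lost as given above, while those of Mx2 and Apobec3 were called under each alternative.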

How the results depend on the processing

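Counts of genes called were recomputed with library totals, DESeq2, no low-count filter, a filter of at least 5 CPM in 2 libraries (which left out Mx1), summed rows, a replicate block and without each library in turn. The count that moved by over 1.5 times was that of genes higher on starvation of WT cells, 5 with TMM scaling and 2 with library totals. With library totals, Ifi35 turned to -0.22 on starvation of WT cells and the interaction of Ifitm3 to 0.0102; the cause was not tested. The median of all genes moved to -0.27 on starvation of KO-labelled cells, -0.63 on starvation of WT cells, 0.39 for starved KO-labelled over starved WT cells and 0.29 for the interaction. Of the single-gene values recomputed, 2879 kept their direction and side of the threshold, 43 lost and 11 gained a call, and 2 reversed. The lost calls lay in the WT starvation comparison, the interaction and, for Rtp4, the starved comparison of the labels. Leaving out single libraries, with the lone library of a group assumed to vary like the other groups, gave 19 to 23 genes lower on starvation of WT cells and 20 to 25 with an interaction below 0, while 41 fell on starvation of KO-labelled cells each time. The replicate numbers do not pair the libraries, since deviations of same-numbered libraries correlated at -0.026 to 0.020; with the replicate block 41 genes fell on starvation of KO-labelled cells, 42 were higher in fed and 41 in starved KO-labelled cells, 23 fell and 5 rose in WT cells, and the interaction gave 25 below and 4 above 0, and it changed no other call. In WT cells few counts limit what can be seen: 12 genes had at most 6 counts over both starved libraries.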

Other observations

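The 34 genes with a promoter window were also split by whether the window held an ISRE core, as a description without a test. On starvation of KO-labelled cells the median log2 fold change was -2.94 for the 23 genes with a match and -2.43 for the 11 without, and in fed KO-labelled over fed WT cells it was 6.15 and 6.26. For GAS letters, the 10 genes with a match had medians of -1.36 on starvation of KO-labelled cells and 3.92 in fed KO-labelled over fed WT cells, against -2.96 and 6.37 for the 24 without. The ranges of the split groups overlap in each of these comparisons.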
